A study of Mus musculus with 12 samples.

Results

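The 10 genes described here form the core of insulin and IGF1 signalling in skeletal muscle: *Igf1*, *Insr*, *Igf1r*, *Irs1*, *Irs2*, *Pik3r1*, *Akt1*, *Akt2*, *Slc2a4* and *Foxo1*. They were chosen by name for their place in the pathway, though with earlier results of these data known. They are 10 of the 27179 mouse genes whose reads were counted. All 10 passed the filter on low counts, which kept 15502 genes for testing, and the smallest count of any of them in any muscle was 258. The muscles were tibialis anterior (TA) muscles of 6 wild-type male C57BL/6N mice, obtained at 6 to 8 weeks of age and used within 2 weeks. Each mouse received 10 μg of empty pcDNA3 plasmid in the TA of one leg (Control, n = 6) and 10 μg of a plasmid with the full-length human lncRNA *FRAIL1* in the other TA (*FRAIL1*, n = 6). Polyadenylated RNA was sequenced from the whole muscles after 7 days. All 12 muscles had therefore been injected with hyaluronidase and plasmid and electroporated, and no untouched muscle was among them. The CMV promoter of the plasmid is not limited to one cell type, and how many fibers took up plasmid is not known from the counts. *FRAIL1* has no counterpart among the mouse genes counted, so its own level was not measured here.

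Insulin and IGF1 bind closely related receptor tyrosine kinases, the insulin receptor and the IGF1 receptor, which phosphorylate the docking proteins IRS1 and IRS2. These recruit PI3-kinase, whose lipid product brings the kinases AKT1 and AKT2 to the membrane, where they promote the movement of the glucose transporter GLUT4 (encoded by *Slc2a4*) to the cell surface, glycogen and protein synthesis, and the exclusion of FoxO transcription factors from the nucleus. In muscle, IGF1 signalling is known for its role in fiber growth, AKT2 for insulin-stimulated glucose uptake, and active FoxO factors for the induction of genes of protein breakdown. Much of this control acts by phosphorylation and protein transport, which mRNA counts do not measure.

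Total counts ranged from 45018389 to 59309210 in Control and from 44848322 to 60527385 in *FRAIL1* muscles. The *FRAIL1* muscle numbered 5 stood apart from the other 11 along the first principal component, with a score of 59.5 where the next highest was 25.8, and its TMM scaling factor was 1.19 where the others lay between 0.935 and 1.07. Genes of the mitochondrial genome took 9.12 to 11.4% of the counts in Control and 6.58 to 9.90% in *FRAIL1* muscles, lowest in *FRAIL1* muscle 5. Values without this muscle are given beside results whose size or call it changes most. All 8 myofiber markers were detected in both groups, with summed levels of 133870 to 160326 CPM (counts scaled to library size) in Control and 106933 to 142599 CPM in *FRAIL1* muscles. Of these 8, 1 passed the test as lower (2 with the replicate number as a block) and 0 as higher. Over all tested genes, 4.43% passed as higher and 1.85% as lower (7.48% and 6.62% with the block), and 27.7% had an unadjusted p under 0.05. Markers of satellite cells and regenerating fibers summed to 169 to 219 CPM in Control and 332 to 1563 CPM in *FRAIL1* muscles, and 5 of 8 passed the test as higher (8 of 8 with the replicate number as a block). Fibroblast markers summed to 1224 to 2370 CPM against 2445 to 6218 CPM (1 of 8 higher, and 0 of 8 with the block). Macrophage markers summed to 246 to 384 CPM against 311 to 791 CPM (0 of 10 past the threshold, 7 of 10 with an unadjusted p under 0.05, and 6 of 10 higher with the block). Adipocyte markers, from cells that also express *Slc2a4*, *Irs1* and *Irs2*, summed to 267 to 343 CPM in Control and 190 to 246 CPM in *FRAIL1* muscles (1 of 7 lower). Endothelial markers summed to 474 to 570 CPM against 383 to 489 CPM (1 of 8 lower, and 3 of 8 with the block). In RNA from whole muscle, fewer cells of a type and less RNA per cell cannot be told apart, and the part of these shifts in the differences reported next was not tested.

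None of the 10 genes passed the threshold of 0.05 on the adjusted p-value (edgeR quasi-likelihood test, Benjamini-Hochberg over 15502 genes), where 6.28% of all tested genes did, 4.43% as higher and 1.85% as lower. At an unadjusted p under 0.05, 4 of the 10 differed (*Irs1*, *Irs2*, *Akt2* and *Slc2a4*), all with lower means in *FRAIL1* muscles, where 27.7% of all tested genes passed this limit and 12.5% passed it as lower. With the replicate number as a block (the mouse, if the numbers mark mice), *Irs1* and *Irs2* fell, 2 of 10 where 14.1% of all tested genes passed, 7.48% as higher and 6.62% as lower. DESeq2, the tool that the study's methods name, run here with its Wald test, called 3 of 10 (*Irs2*, *Akt2* and *Slc2a4*), where it called 14.4% of all tested genes, and limma voom with quality weights called the same 3, where it called 11.3%. Leaving out single *FRAIL1* muscles moved the edgeR calls as well. *Irs2* and *Akt2* fell without *FRAIL1* muscle 2, where 10.1% of tested genes passed, and *Akt2* and *Slc2a4* without *FRAIL1* muscle 3, where 13.5% passed. The median log2 fold change of the 10 genes was -0.058, beside 0.0096 over all tested genes, with 6 negative and 4 positive. The differences of the 10 genes are plotted with their intervals, and the direction of each agreed between the fit of all 12 muscles and the fit with the block.

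**Figure D1:**
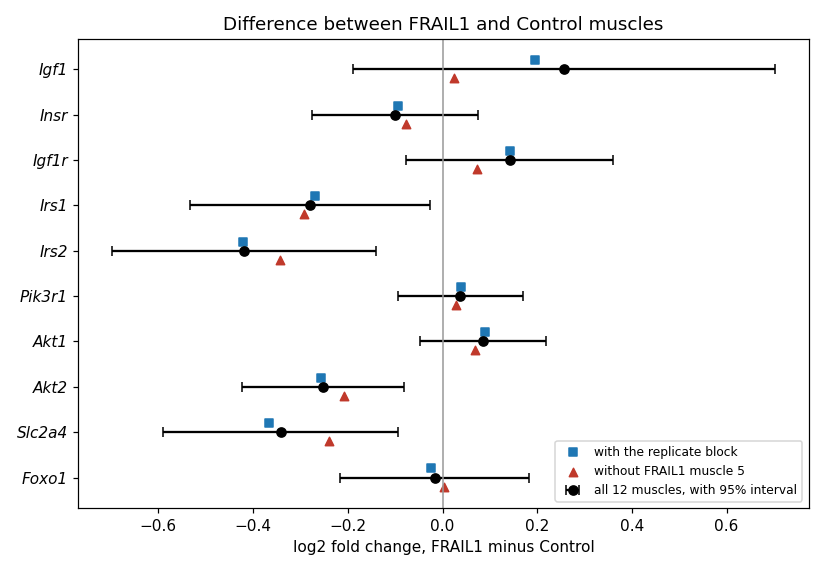
Log2 fold change of the 10 genes (x axis, *FRAIL1* minus Control; one gene per row). Black points with bars are the edgeR estimates from all 12 muscles with 95% intervals, blue squares the estimates with the replicate block, and red triangles those without *FRAIL1* muscle 5. The intervals of *Irs1*, *Irs2*, *Akt2* and *Slc2a4* lie below 0, and the estimate of *Igf1* moves from 0.26 to 0.023 without *FRAIL1* muscle 5.

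Per kilobase of exon, the 10 mRNAs spanned a wide range of levels in Control muscles, with *Slc2a4* at the top (157 ± 6.91 CPM per kb, SD, n = 6) and *Igf1r* at the bottom (1.13 ± 0.160 CPM per kb, SD, n = 6). Between them, the mean levels in CPM per kb were 41.2 for *Akt2*, 21.5 for *Akt1*, 11.5 for *Irs1*, 4.30 for *Insr*, 3.08 for *Pik3r1*, 2.33 for *Igf1*, 2.27 for *Foxo1* and 1.42 for *Irs2*. In this order, the Control values of *Igf1* and *Foxo1* overlapped, as did those of *Irs2* and *Igf1r*, while all other neighbours were separate in all 6 muscles. The values of *Pik3r1* and *Igf1* overlapped as well in *FRAIL1* muscles. Within each pair of relatives, *Irs1* was thus the more abundant docking protein mRNA, *Insr* the more abundant receptor mRNA and *Akt2* the more abundant kinase mRNA.

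**Figure D2:**
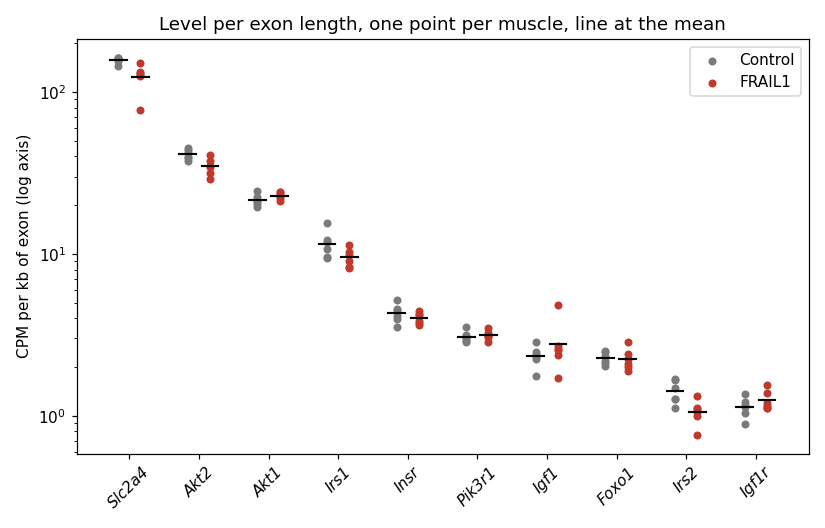
Level of the 10 mRNAs in CPM per kb of exon (y axis, log scale), ordered by the mean of the Control muscles, with one point per muscle (gray Control, red *FRAIL1*) and a line at each group's mean. *Slc2a4* (157 CPM per kb in Control) is the highest and *Igf1r* (1.13 CPM per kb) the lowest.

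The ligand and receptor mRNAs did not pass the test in any setting tried. *Igf1* (gene ID 16000, chromosome 10, 87858265 to 87937047), the growth factor that muscle fibers and other cells of the tissue secrete, had a lowest, median and highest level of 17.6, 23.2 and 28.1 CPM in Control and of 17.0, 25.3 and 48.1 CPM in *FRAIL1* muscles. The highest value was that of *FRAIL1* muscle 5, and the other 5 *FRAIL1* muscles, between 17.0 and 26.8 CPM, lay within the Control range or below it. The log2 fold change of *Igf1* was 0.26 (SE 0.21; edgeR, Benjamini-Hochberg adjusted p = 0.443), and without *FRAIL1* muscle 5 it was 0.023 (adjusted p = 0.941). The insulin receptor mRNA *Insr* (16337, chromosome 8, 3150922 to 3279649) measured 48.8, 59.0 and 70.8 CPM in Control and 50.2, 54.9 and 61.0 CPM in *FRAIL1* muscles, so that every *FRAIL1* value lay inside the Control range (log2 fold change -0.10, SE 0.083, adjusted p = 0.452). *Igf1r* (16001, chromosome 7, 67952257 to 68233668), the receptor for IGF1, measured 15.0, 19.2 and 22.9 CPM in Control and 18.8, 19.8 and 25.9 CPM in *FRAIL1* muscles, again with overlapping groups. Its log2 fold change was 0.14 (SE 0.10, adjusted p = 0.388), and the pair numbered 5 held the largest of its 6 differences, 0.79 on the log2 scale. Without *FRAIL1* muscle 5 the log2 fold change of *Igf1r* was 0.072 (adjusted p = 0.714), and without both muscles numbered 5 it was 0.011 (adjusted p = 0.959). The 95% intervals of the log2 fold change were -0.19 to 0.70 for *Igf1*, -0.28 to 0.075 for *Insr* and -0.076 to 0.36 for *Igf1r*. Coordinates here and for the following genes are those of RefSeq on GRCm38, the build also called mm10.

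The docking protein mRNAs *Irs1* and *Irs2* were both lower on average in *FRAIL1* muscles, and both passed the threshold once the replicate number entered as a block. *Irs1* (16367, chromosome 1, 82233105 to 82291439) had a lowest, median and highest level of 86.4, 103 and 142 CPM in Control and of 74.8, 86.4 and 104 CPM in *FRAIL1* muscles. The groups overlapped, yet the *FRAIL1* muscle was the lower of the pair for 6 of 6 numbers, by -0.45, -0.19, -0.20, -0.24, -0.31 and -0.23 on the log2 scale for numbers 1 to 6. The mean was 105 ± 20.6 CPM in Control and 86.9 ± 11.4 CPM in *FRAIL1* muscles (SD, n = 6), a log2 fold change of -0.28 (SE 0.12; edgeR, Benjamini-Hochberg adjusted p = 0.145), and with the block the log2 fold change was -0.27 (adjusted p = 0.0127). Without Control muscle 1, which held the value of 142 CPM, the log2 fold change without a block was -0.18 (adjusted p = 0.280). An antisense transcript, *Gm9747*, overlaps 30.9% of the exon length of *Irs1*, and the strand setting of the counting is not given in the sources used here.

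*Irs2* (384783, chromosome 8, 10984681 to 11008929) was the least abundant of the 10 by total counts, at 7.08, 8.75 and 10.6 CPM in Control and 4.82, 6.78 and 8.42 CPM in *FRAIL1* muscles. Its groups overlapped too, with the *FRAIL1* muscle lower for 5 of 6 numbers by -0.28 to -0.75 on the log2 scale and the pair numbered 3 level (0.0065). *FRAIL1* muscle 5 was the lowest of the 12. The mean was 8.96 ± 1.46 CPM in Control and 6.70 ± 1.17 CPM in *FRAIL1* muscles (SD, n = 6), a ratio of means of 0.748 and a log2 fold change of -0.42 (SE 0.13; edgeR, Benjamini-Hochberg adjusted p = 0.0645). With the block the log2 fold change was -0.42 (adjusted p = 0.0275), and without *FRAIL1* muscle 5 it was -0.34 (adjusted p = 0.0965). DESeq2's Wald test gave *Irs2* an adjusted p of 0.0249. Over the 12 muscles, the genes whose log2 CPM was most like that of *Irs1* were *Gpr146* (Pearson r = 0.903), *Eed* (0.888) and *Ank1* (0.886), and those most like *Irs2* were *Aldh5a1* (0.970), *Htatsf1* (0.966) and *Rfk* (0.947). These 12 points share the group difference and the library scaling, and the correlations are given as a description.

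The promoters of these docking protein genes are shown because the same E-box, the palindrome CACGTG bound by basic helix-loop-helix factors such as USF, MYC and the clock factors, is in both. The 250 bases before the annotated start, from RefSeq on GRCm38.p6, lie at chr1:82291440-82291689 for *Irs1* and chr8:11008930-11009179 for *Irs2*, both on the minus strand, and contain no annotated exon. They are written 5′ to 3′ in lower case, with the E-box in capitals.
Irs1: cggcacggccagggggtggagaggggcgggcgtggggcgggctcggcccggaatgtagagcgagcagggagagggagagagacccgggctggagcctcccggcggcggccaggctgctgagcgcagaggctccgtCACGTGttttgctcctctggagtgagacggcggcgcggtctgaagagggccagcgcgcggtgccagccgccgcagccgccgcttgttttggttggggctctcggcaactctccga
Irs2: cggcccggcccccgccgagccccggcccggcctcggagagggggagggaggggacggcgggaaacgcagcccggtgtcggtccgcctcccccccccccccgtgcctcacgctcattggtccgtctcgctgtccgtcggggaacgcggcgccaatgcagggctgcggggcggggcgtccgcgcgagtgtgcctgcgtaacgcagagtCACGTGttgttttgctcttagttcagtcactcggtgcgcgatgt
The E-box starts at position -115 in *Irs1* and at position -44 in *Irs2*, counted from the annotated start. Of 32851 mouse windows of the same length, 6.02% hold CACGTG, and among the 8 of the 10 genes that the promoter table covers, these were the only ones (*Insr* and *Slc2a4* were not covered). Both windows are rich in G and C, at 72.4% and 72.8% where the median window has 52.4%. The share of windows equally rich in G and C that hold CACGTG was not counted. The FoxO core TGTTTAC, searched on both strands, is in neither (3.17% of all windows), nor is the cAMP response element TGACGTCA (1.55%). A match of letters is not evidence of binding in these muscles.

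*Pik3r1* (18708, chromosome 13, 101680761 to 101768217), which encodes the p85α regulatory subunit through which PI3-kinase docks on the IRS proteins, was among the most even of the 10 mRNAs. It measured 28.8 to 35.4 CPM in Control and 28.9 to 35.2 CPM in *FRAIL1* muscles, so the ranges were nearly the same. The log2 fold change was 0.037 (SE 0.062, 95% interval -0.094 to 0.17; edgeR, Benjamini-Hochberg adjusted p = 0.732).

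The Akt kinase mRNAs had differences of opposite sign, neither past the threshold in edgeR's test. *Akt2* (11652, chromosome 7, 27591552 to 27640826), which encodes the isoform that insulin-stimulated glucose uptake depends on, had a lowest, median and highest level of 269, 290 and 323 CPM in Control and of 207, 246 and 289 CPM in *FRAIL1* muscles. Only the *FRAIL1* muscle numbered 2 exceeded its Control partner, by 0.05 on the log2 scale, and the group ranges met between 269 and 289 CPM. The mean was 294 ± 21.3 CPM in Control and 247 ± 28.9 CPM in *FRAIL1* muscles (SD, n = 6), a log2 fold change of -0.25 (SE 0.080; edgeR, Benjamini-Hochberg adjusted p = 0.0674, and 0.0518 with the replicate block). Without *FRAIL1* muscle 5 the log2 fold change of *Akt2* was -0.21 (edgeR adjusted p = 0.0868), and without both muscles numbered 5 it was -0.19 (adjusted p = 0.133). *Akt1* (11651, chromosome 12, 112653821 to 112674884), the isoform linked more to growth, measured 79.2, 87.1 and 101 CPM in Control and 86.6, 93.8 and 98.5 CPM in *FRAIL1* muscles, with the *FRAIL1* muscle higher for 5 of 6 numbers. Its log2 fold change was 0.086 (SE 0.063, adjusted p = 0.390). The pseudogene *Akt2-ps* matches 31.8% of the longest *Akt2* transcript at 98% identity or more, and it was not analysed here.

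Taken within each library, where scaling between libraries plays no part, the number of *Akt1* counts per *Akt2* count separated the groups completely. It ranged from 0.279 to 0.321 in Control and from 0.337 to 0.476 in *FRAIL1* muscles and was higher in the *FRAIL1* muscle for 6 of 6 numbers. The mean log2 ratio was -1.74 ± 0.084 in Control and -1.39 ± 0.18 in *FRAIL1* muscles (SD, n = 6), a difference of 0.35. An exact two-sided permutation test over all splits, which ignores the pairing of the muscles, gave p = 0.00216, the smallest this test can give. After Benjamini-Hochberg adjustment over 6 ratios, that permutation p was 0.0130. Without *FRAIL1* muscle 5, which had the highest ratio, the difference was 0.28 (adjusted exact p = 0.0130). An exact sign-flip test of the 6 pairs gave p = 0.0313, again the smallest it can give, and an adjusted p of 0.0938. The ratio does not say which of the kinase mRNAs moved, and the CPM of both are those given above.

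**Figure D3:**
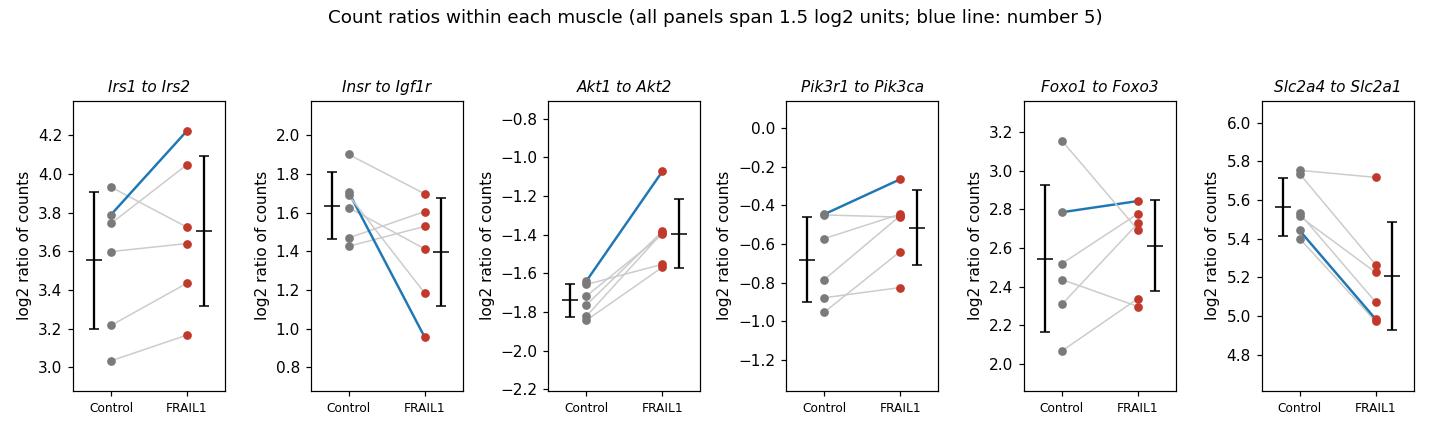
Log2 ratio of counts (y axis, 1.5 log2 units in every panel) for 6 pairs of related mRNAs, one point per muscle, with lines joining muscles of one number, the line of number 5 in blue, and bars showing each group's mean and SD. The Control and *FRAIL1* points of *Akt1* to *Akt2* do not overlap (means -1.74 and -1.39), while those of the other 5 pairs do.

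None of the other 5 ratios passed the threshold. *Insr* to *Igf1r* differed by -0.24 on the log2 scale (adjusted exact permutation p = 0.221), *Irs1* to *Irs2* by 0.15 (0.582), *Pik3r1* to the catalytic subunit *Pik3ca* by 0.17 (0.318) and *Foxo1* to *Foxo3* by 0.067 (0.721). Without *FRAIL1* muscle 5 the difference was -0.15 for *Insr* to *Igf1r*, 0.050 for *Irs1* to *Irs2* and 0.12 for *Pik3r1* to *Pik3ca* (adjusted exact permutation p = 0.429, 0.911 and 0.565). *Slc2a4* to *Slc2a1*, the insulin-responsive transporter against the basal transporter GLUT1, fell between these and the Akt pair, with a geometric mean of 47.3 *Slc2a4* counts per *Slc2a1* count in Control and 36.9 in *FRAIL1* muscles. It was lower in the *FRAIL1* muscle for 6 of 6 numbers, with overlapping groups and a log2 difference of -0.36 (exact permutation p = 0.0281, adjusted p = 0.0844). *FRAIL1* muscle 3, whose ratio of 52.6 lay inside the Control range, decides that value, since without it the difference was -0.46 (adjusted exact permutation p = 0.00649).

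*Slc2a4* (20528, chromosome 11, 69942286 to 69948216), the GLUT4 gene, was the most abundant of the 10 mRNAs and was lower in the *FRAIL1* muscle for 6 of 6 numbers. Control muscles were tightly grouped, at 501, 555 and 565 CPM for the lowest, median and highest, whereas *FRAIL1* muscles spread over 271, 448 and 526 CPM. The lowest value was that of *FRAIL1* muscle 5, the next lowest was 434 CPM, and only *FRAIL1* muscle 3, at 526 CPM, lay within the Control range. The mean was 547 ± 24.0 CPM in Control and 432 ± 85.4 CPM in *FRAIL1* muscles (SD, n = 6), a log2 fold change of -0.34 (SE 0.12; edgeR, Benjamini-Hochberg adjusted p = 0.0806, and 0.0576 with the replicate block). Without *FRAIL1* muscle 5 the log2 fold change was smaller, at -0.24, but the spread was smaller too, and the gene fell with an adjusted p of 0.0247, where 6.22% of all genes tested without that muscle passed.

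*Foxo1* (56458, chromosome 3, 52268337 to 52350109), the FoxO factor that AKT phosphorylation keeps out of the nucleus, measured 17.7 to 21.7 CPM in Control and 16.4 to 24.8 CPM in *FRAIL1* muscles. The *FRAIL1* muscle was lower for 3 numbers and higher for 3. The log2 fold change was -0.016 (SE 0.094, 95% interval -0.22 to 0.18; edgeR, Benjamini-Hochberg adjusted p = 0.930), and its sign changed with the muscles included.

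**Figure D4:**
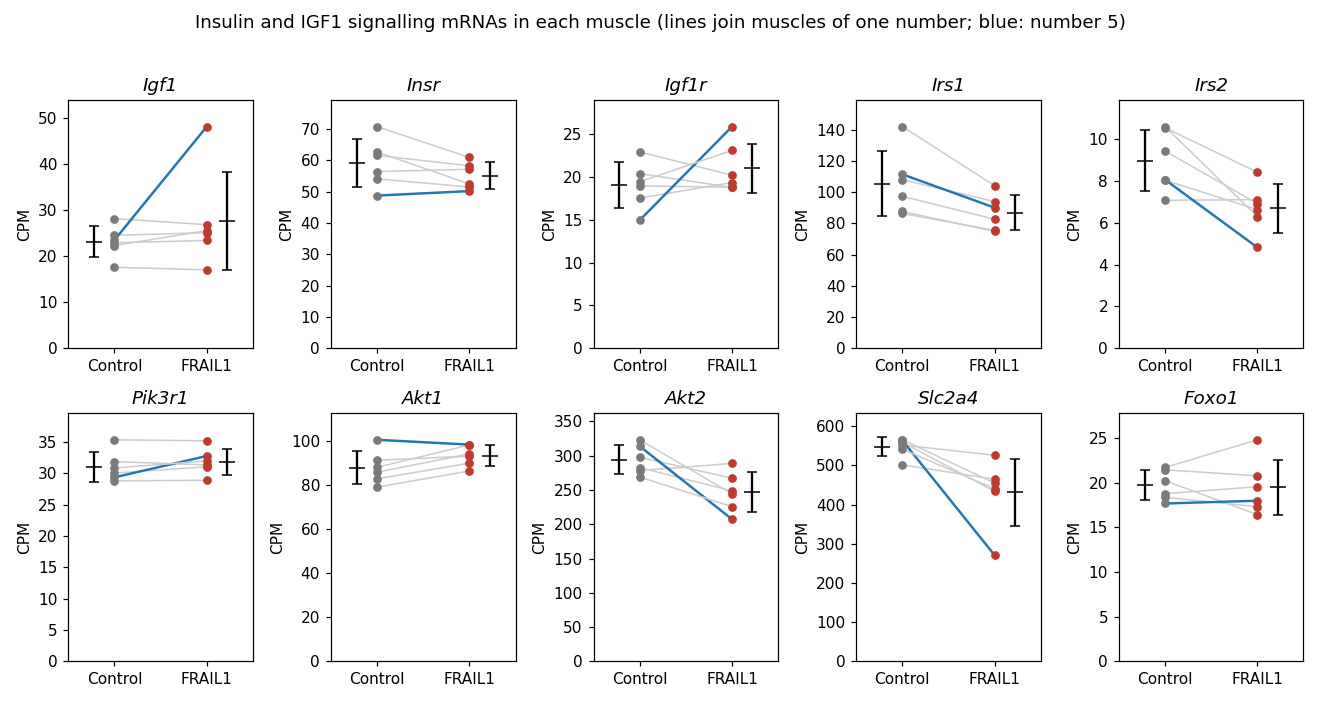
Level of each of the 10 mRNAs in CPM (y axis, from 0) in the Control (gray) and *FRAIL1* (red) muscles, with lines joining muscles of one number, the line of number 5 in blue, and bars showing each group's mean and SD (n = 6). All 6 lines slope downward for *Irs1* and *Slc2a4*, and number 5 carries the steepest line for *Igf1*, *Igf1r*, *Pik3r1*, *Akt2* and *Slc2a4*.

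Around these 10, a further 119 genes of the pathway were listed by role, of which 115 passed the filter on low counts. *Ins1* and *Igfbp1* had 0 counts in all 12 muscles, *Ins2* had 3 in total and *Irs4* had 28. Of the 115, 7 rose and 3 fell (edgeR, Benjamini-Hochberg adjusted p under 0.05), 10 in all where 6.28% of all tested genes passed, and their median log2 fold change was -0.039. With the replicate block 9 rose and 14 fell, where 14.1% of all tested genes passed, 7.48% as higher and 6.62% as lower. Most of the added genes were lower, and so it was over all tested genes. There, lower calls went from 287 to 1027 and higher calls from 687 to 1159. Without *FRAIL1* muscle 5, 8 rose and 5 fell, where 6.22% of tested genes passed. In what follows, genes said to have passed only with the block are those that edgeR called with it but not without it over all 12 muscles. The counts by role include any of the 10 core genes with that role. Over all tested genes, 27.7% had an unadjusted p under 0.05 (edgeR).

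**Figure D5:**
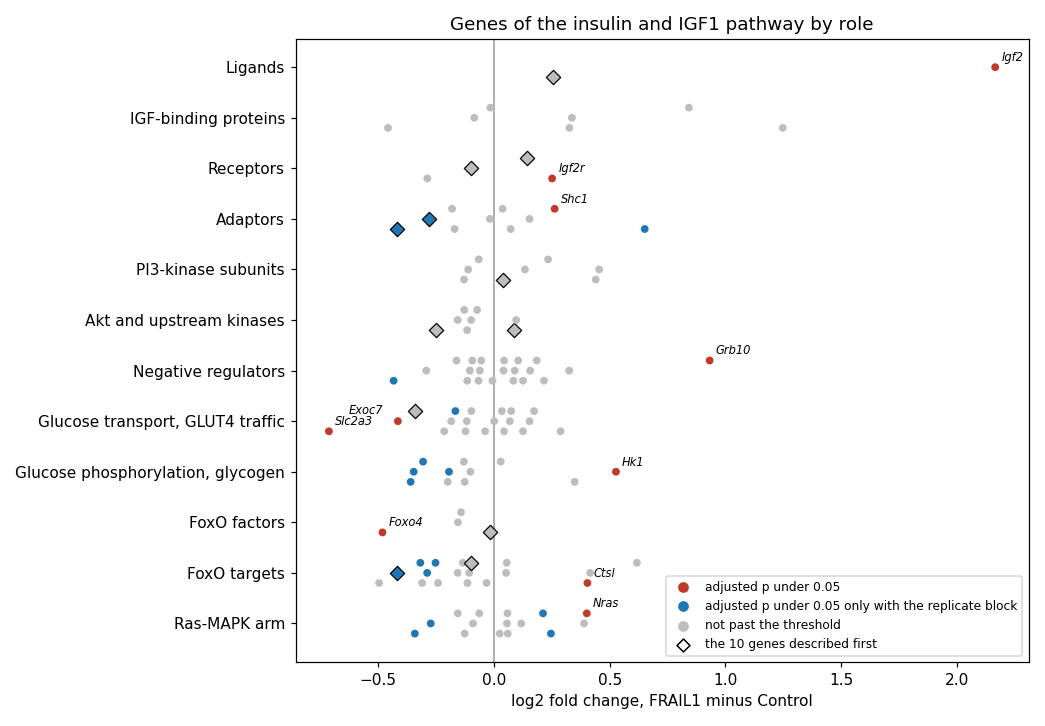
Log2 fold change (x axis, *FRAIL1* minus Control) of the tested pathway genes, one point per gene, in rows by role. Red points passed the adjusted threshold of 0.05 (edgeR, all 12 muscles) and are named, blue points passed it only with the replicate block, gray points passed in neither, and diamonds are the 10 core genes. *Igf2* at 2.17 lies farthest to the right and *Slc2a3* at -0.71 farthest to the left.

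On the ligand side, *Igf2*, the fetal growth factor that regenerating muscle also expresses, rose from 47.9 ± 5.21 CPM in Control to 215 ± 152 CPM in *FRAIL1* muscles (SD, n = 6; log2 fold change 2.17, SE 0.37, adjusted p = 0.0118). Its levels were 41.4 to 56.1 CPM against 90.5 to 509 CPM, without overlap, where 4.88% of all tested genes did not overlap. Without *FRAIL1* muscle 5 the log2 fold change was 1.70 (adjusted p = 0.00222). The markers of regenerating fibers moved in the same direction, as given above, and their part in this rise was not tested. Another annotated gene, *Gm49394*, matches 76.2% of the longest *Igf2* transcript, so the counts of this locus are uncertain. *Igf2r*, the receptor that clears IGF2 by carrying it to lysosomes, was the 1 receptor of 4 that rose, from 82.4 ± 1.92 to 98.1 ± 9.85 CPM (SD, n = 6; log2 fold change 0.25, adjusted p = 0.0356).

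Among 10 tested adaptors, *Shc1*, which links the receptors to the Ras pathway, rose from 31.6 ± 1.20 to 37.9 ± 5.05 CPM (SD, n = 6; log2 fold change 0.26), just inside the threshold (adjusted p = 0.04997) and with 28.3% of its longest transcript matching another annotated gene. *Sh2b2*, an adaptor of the insulin receptor also called APS, passed only with the block (log2 fold change 0.62, adjusted p = 0.00834). None of the 8 PI3-kinase subunits and none of the 8 Akt kinases and kinases acting on them passed with or without the block (edgeR), and 1 and 2 of them had an unadjusted p under 0.05. Of 21 negative regulators, *Grb10*, an adaptor that binds and restrains the insulin and IGF1 receptors, rose from 37.5 ± 3.38 to 71.5 ± 33.9 CPM (SD, n = 6), with a log2 fold change of 0.93 (edgeR, Benjamini-Hochberg adjusted p = 0.0396). All 6 *FRAIL1* values of *Grb10* (45.5 to 139 CPM) lay above all 6 Control values (31.8 to 40.8 CPM), where 4.88% of all tested genes did not overlap. The call was lost with the block (adjusted p = 0.0712), and without *FRAIL1* muscle 5 the log2 fold change was 0.63 (adjusted p = 0.00242). *Pik3ip1*, an inhibitor of PI3-kinase, moved the other way, with a log2 fold change of -0.43 (adjusted p = 0.0674) that passed with the block (adjusted p = 0.00923).

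Of 19 genes of glucose transport and GLUT4 traffic, 4 were lower (*Slc2a4* among them) and 3 higher at an unadjusted p under 0.05. Over all tested genes 27.7% passed this limit, 12.5% as lower. At the adjusted threshold 2 fell and 0 rose, where 6.28% of all tested genes passed. The 2 were *Slc2a3*, the transporter GLUT3, from 8.22 ± 1.17 to 5.01 ± 1.14 CPM (SD, n = 6; log2 fold change -0.71, edgeR adjusted p = 0.0159), and *Exoc7*, an exocyst subunit that helps GLUT4 vesicles dock, from 111 ± 15.5 to 83.4 ± 11.8 CPM (-0.42, adjusted p = 0.0348). Both were lower in the *FRAIL1* muscle for 6 of 6 numbers. *Rac1*, a small GTPase of actin remodelling, passed only with the block (-0.17, adjusted p = 0.0472). The gene *Daglb* on the opposite strand overlaps 51.4% of the exon length of *Rac1*, and the strand setting of the counting is not given. *Slc2a1* was level, with a log2 fold change of 7.4e-04 (adjusted p = 0.998).

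The hexokinases phosphorylate glucose after its entry, and their main isoforms differed in sign. *Hk1*, the isoform of most tissues, rose from 28.1 ± 2.19 to 40.4 ± 7.12 CPM (SD, n = 6; log2 fold change 0.53, edgeR adjusted p = 0.0109). *Hk2*, the main insulin-responsive isoform of muscle, was lower in every *FRAIL1* muscle (226 to 404 CPM) than in any Control muscle (406 to 472 CPM), where 4.88% of all tested genes did not overlap. Its log2 fold change of -0.35 did not pass over all 12 muscles (adjusted p = 0.0751). It passed with the block (adjusted p = 0.0334) and without *FRAIL1* muscle 5 (log2 fold change -0.25, adjusted p = 0.0403). Of the 11 genes of phosphorylation and glycogen, *Ppp1r3c* and *Ppp1r3a*, glycogen-targeting subunits of protein phosphatase 1, and *Gyg*, glycogenin, also passed as lower only with the block (log2 fold changes -0.36, -0.31 and -0.20, adjusted p = 0.0129, 0.0466 and 0.0479). With the block 6.62% of all tested genes passed as lower.

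At the FoxO end, *Foxo4* was the 1 of 4 FoxO genes that passed. It fell from 211 ± 6.50 to 151 ± 31.9 CPM (SD, n = 6; log2 fold change -0.48, SE 0.12, edgeR adjusted p = 0.0348). All *FRAIL1* values (92.2 to 181 CPM) lay below all Control values (205 to 221 CPM), where 4.88% of all tested genes did not overlap. Among 18 genes known as FoxO targets, *Ctsl*, a lysosomal protease, rose from 115 ± 4.82 to 153 ± 25.9 CPM (log2 fold change 0.40, adjusted p = 0.0220), and 28.6% of its longest transcript matches other annotated genes. No target fell in edgeR's test without the block. At an unadjusted p under 0.05, 3 were lower, where 12.5% of all tested genes were. With the block, where 6.62% of all tested genes passed as lower, 4 targets fell. These were *Irs2*, *Pdk4*, which shuts pyruvate out of oxidation (adjusted p = 0.0199), *Txnip*, an inhibitor of glucose uptake (0.0343), and *Map1lc3b*, an autophagosome protein (0.0375). The ubiquitin ligases of muscle atrophy did not pass, with a log2 fold change of -0.31 for *Trim63* (edgeR adjusted p = 0.274, and 0.0648 with the block; -0.20 without *FRAIL1* muscle 5) and -0.50 for *Fbxo32* (0.313, and 0.0758 with the block).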

How the data were processed

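Polyadenylated RNA of 12 TA muscles was sequenced. According to the methods and the processing notes, the authors trimmed reads with Trimmomatic, mapped them to mm10 with STAR 2.7.8a and deposited raw counts of uniquely mapped reads per gene from featureCounts 2.0.1. Whether strand was used is not given in the sources used here. Symbols matched 25275 of 27179 gene IDs, and the rest held 0.280% of counts. Counts of any 2 libraries in one group differed far beyond sampling noise (chi-square at least 14.5 times its degrees of freedom), so no library was a copy of another in its group. Libraries of different groups were not compared in this way.

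Counts were tested in R 4.3.3 with edgeR 4.0.16 (filterByExpr, TMM factors, robust quasi-likelihood fit, no block), with Benjamini-Hochberg adjustment over 15502 genes and a threshold of 0.05. CPM used TMM library sizes. Log2 ratios of counts were compared by exact two-sided permutation. P-values rest on the spread between muscles. Those of the block fits and the sign-flip test rest on the spread of the differences between muscles of one number. The scripts were tested on simulated data. Alternatives were the replicate block, other scalings and filters, each muscle or both muscles numbered 5 left out, limma 3.58.1 voom, DESeq2 1.42.0 and a fit that was not robust. Longest transcripts were searched for copies with BLAST 2.17.0 (98% identity, 100 bases).

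The muscles carry numbers 1 to 6 in both groups, and a number was read as a mouse, which the labels do not state. Deviations from group means correlated between muscles of one number at 0.254, 0.162, 0.282, 0.263, 0.0547 and 0.185 for numbers 1 to 6 (mean 0.200, against -0.0400 between numbers).

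The 10 genes, the pathway lists and the marker lists were chosen with earlier results of these data known. Named were the 10 genes, of each list the genes past the threshold (at most 6), and at most 4 past it only with the block. One gene that this rule names is not reported here. The marker lists also covered smooth muscle, Schwann cells and lymphocytes. Smooth muscle markers summed to 266 to 385 CPM in Control and 272 to 326 CPM in *FRAIL1* muscles, Schwann cell markers to 61.1 to 115 and 47.9 to 80.9 CPM, and lymphocyte markers to 4.82 to 10.2 and 4.68 to 11.1 CPM, with none past the threshold (edgeR; 4, 2 and 0 markers had an unadjusted p under 0.05). With the block 2 smooth muscle markers passed as lower, and 1 Schwann cell and 1 lymphocyte marker as higher. Protein sequences were not analysed here.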

Additional observations from a re-analysis of the deposited data

Results flagged for a closer look

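In 3 of 32 groups of 6 values checked, one muscle lay far from the others, where chance marks about 1 group in 20, and in each case it was *FRAIL1* muscle 5. Its *Igf1* level was 48.1 CPM, where the other 5 *FRAIL1* muscles lay between 17.0 and 26.8 CPM. Its *Slc2a4* level was 271 CPM, where the others lay between 434 and 526 CPM. Its log2 ratio of *Akt1* to *Akt2* was -1.07, where the others lay between -1.57 and -1.38. The same muscle had the highest summed level of regenerating fiber markers (1563 CPM) and of fibroblast markers (6218 CPM) and the lowest of myofiber markers (106933 CPM) and adipocyte markers (190 CPM). The part of these shifts in its 3 values was not tested.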

How the results depend on the processing

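The number of the 10 genes called was 0 in the edgeR fit, 2 with the replicate block, 3 with DESeq2, 4 with DESeq2 and the block, 3 with voom, 1 without both muscles numbered 5 and 4 without them and with the block. Leaving out one muscle gave 0 to 2: *Irs2* and *Akt2* passed without *FRAIL1* muscle 2, *Akt2* and *Slc2a4* without *FRAIL1* muscle 3, and *Slc2a4* without *FRAIL1* muscle 5. Other scalings, other filters and the fit that was not robust gave 0. For the further pathway genes the count of 10 became 23 with the block, 24 with DESeq2, 31 with DESeq2 and the block, 17 with voom, 27 without both muscles numbered 5 and with the block, and 5 to 22 with one muscle left out. It was lowest (5) without Control muscle 1, 2, 3 or 5 or *FRAIL1* muscle 1, was 6 without Control muscle 4 or 6 or *FRAIL1* muscle 4, and reached 18 and 22 without *FRAIL1* muscles 2 and 3. For all genes the count of 974 became 2186, 2232, 2898, 1756 and 2305 in the same settings, and 364 to 2110 with one muscle left out. The cause of these differences was not tested.

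The adjusted p over 24 alternatives ranged from 4.5e-04 to 0.300 for *Irs1*, 0.00459 to 0.130 for *Irs2*, 0.0153 to 0.133 for *Akt2* and 0.00660 to 0.137 for *Slc2a4*, all with negative log2 fold changes. *Foxo1* turned positive without Control muscle 2 (0.013) or 3 (0.0088) or *FRAIL1* muscle 1 (0.026), 4 (0.015) or 5 (0.0041), and ranged from -0.10 to 0.026 with one muscle left out. The *Akt1* to *Akt2* ratio kept its difference of 0.35 with the pairing by number, but its adjusted p rose to 0.0938, where 6 pairs cannot give an exact p below 0.0313. With one muscle left out it ranged from 0.28 to 0.38. *Slc2a4* to *Slc2a1* ranged from -0.46 to -0.31 and *Foxo1* to *Foxo3* from -0.028 (without Control muscle 1) to 0.19, while *Insr* to *Igf1r* ranged from -0.30 to -0.15, *Irs1* to *Irs2* from 0.050 (without Control muscle 2 or *FRAIL1* muscle 5) to 0.26 and *Pik3r1* to *Pik3ca* from 0.11 (without Control muscle 4) to 0.23. With one muscle left out, the log2 fold change of *Irs1* ranged from -0.34 to -0.18 and that of *Insr* from -0.15 to -0.042 (without Control muscle 3), with no call. The replicate block changed no other call among the 10 genes and 6 ratios. Other scalings moved the median of all genes by -0.0070 to 0.0061 on the log2 scale. Depth limits *Irs2* most, with 258 to 591 counts per muscle.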

Other observations

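The Ras-MAPK arm, the other route from the IRS and SHC adaptors, held 15 tested genes, of which 1 rose and 0 fell (edgeR, Benjamini-Hochberg adjusted p under 0.05), where 6.28% of all tested genes passed (4 higher and 2 lower at an unadjusted p under 0.05). *Nras*, a Ras GTPase, rose from 43.8 ± 4.22 CPM in Control to 57.8 ± 6.90 CPM in *FRAIL1* muscles (SD, n = 6; log2 fold change 0.40, adjusted p = 0.0151). Its *FRAIL1* values of 51.1 to 70.6 CPM lay above all Control values of 39.2 to 48.7 CPM, where 4.88% of all tested genes did not overlap. Among the genes of this arm that passed only with the block were the exchange factor *Sos2* (log2 fold change -0.35, adjusted p = 0.00879) and the feedback inhibitors *Spry1* (0.24, 0.0246) and *Dusp6* (0.21, 0.0435).

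The IGF-binding proteins hold IGFs outside the cell, and their list included *Igfals*, the gene of the acid-labile subunit. Of the 7 tested genes on this list, none passed the threshold (3 had an unadjusted p under 0.05, all higher) and none passed with the block. *Igfbp5* was the most abundant, at 845 ± 130 CPM in Control and 797 ± 172 CPM in *FRAIL1* muscles (SD, n = 6; adjusted p = 0.712). *Igfbp4* was singled out after its values were seen. Its *FRAIL1* levels of 52.8 to 192 CPM lay above all Control levels of 35.5 to 51.1 CPM, where 4.88% of all tested genes did not overlap. The log2 fold change of *Igfbp4* was 0.84 (adjusted p = 0.109), and without *FRAIL1* muscle 5 it rose by 0.38 (adjusted p = 0.0260).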
